A study of Mus musculus and Rattus norvegicus with 33 samples.

Results

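Signalling by myostatin, follistatin and the activins was followed through 10 genes, Mstn, Tgfb1, Fst, Fstl1, Fstl3, Acvr2a, Acvr2b, Acvr1b, Smad3 and Smad7. They were taken by symbol from the deposited tables of both species, where they are 10 of 21322 mouse and 10 of 12411 rat gene symbols. All 10 passed the filter on low values in both species, together with 13647 mouse and 10356 rat genes in all.

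Myostatin, the product of Mstn, is a growth factor of the TGF-beta family that muscle fibres secrete and that limits muscle mass. Myostatin and the activins bind the receptors encoded by Acvr2a and Acvr2b, which act with the receptor encoded by Acvr1b to phosphorylate the transcription factor SMAD3, and SMAD7 inhibits this signalling from inside the cell. Follistatin (Fst) and follistatin-like 3 (Fstl3) are secreted proteins that bind and neutralise these ligands, whereas Fstl1 encodes a secreted glycoprotein with a follistatin-like domain, and Tgfb1 encodes a related ligand with receptors of its own.

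The libraries came from total RNA of the tibialis anterior, a shin muscle that raises the foot, in wild-type mice and rats whose leg nerve was driven by an implanted stimulator. In mice 2 legs had 2 days of training, 3 legs had 10 days and 3 legs had over 17 days, and they were set against 9 unstimulated contralateral legs. Rat legs trained for 30 days, daily (n = 2) or once every 3 days (n = 3), were set against 3 legs with sham surgery and against 8 contralateral legs, those of the sham rats included. Trained legs were taken 1 hour after exercise, and the time for the other legs, the strain, sex and age, and whether sham legs carried a device are not given in the sources used here. A leg code gives the side, TAL for trained or sham and TAR for contralateral, with the animal's number, and mouse leg TAR348 has no partner leg here. With no sham group in mice, the effects of surgery and of training cannot be told apart there.

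Levels are CPM, reads per 1000000 reads of a library, so a level is a share of all reads. The estimated depth was 26.5 to 43.1 M reads in mice and 11.6 to 28 M in rats, with rat leg TAR299 below these at 4.87 M. Markers of muscle fibres, 8 in mice and the 7 found in the rat table, summed to 98100 CPM or more in every mouse library and 132000 or more in every rat library, so the labelled tissue and its markers match. Several libraries had far higher marker sums of some other cell types than their group, and these values are given beside the results below. A gene was called changed at a Benjamini-Hochberg adjusted p under 0.05 in limma over all genes tested. Changes are log2 differences of CPM + 0.5 with standard errors (SE), and this scale understates the change of low genes such as Fst and Fstl3. The 3 mouse groups share their contralateral legs, so their values against those legs are not independent of each other.

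The promoters of Mstn, Fstl1 and Acvr1b are shown because the mouse results turn on all of them and the rat results on Fstl1 and Acvr1b. Each is the 250 bases before the annotated start, on the gene's strand, from RefSeq on GRCm38.p6, and 8 of the 10 genes have a promoter there. Capitals mark E-boxes (CANNTG, the same on both strands, the motif of myogenic and other helix-loop-helix factors) and SMAD boxes (CAGAC on either strand), and none of the marked motifs overlap.
Mstn, chr1:53061390-53061639, plus strand: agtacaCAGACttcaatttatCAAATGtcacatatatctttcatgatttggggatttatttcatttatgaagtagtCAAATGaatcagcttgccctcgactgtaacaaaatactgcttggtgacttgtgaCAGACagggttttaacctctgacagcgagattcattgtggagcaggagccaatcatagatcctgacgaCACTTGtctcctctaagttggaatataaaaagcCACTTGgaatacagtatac
Fstl1, chr16:37776805-37777054, plus strand: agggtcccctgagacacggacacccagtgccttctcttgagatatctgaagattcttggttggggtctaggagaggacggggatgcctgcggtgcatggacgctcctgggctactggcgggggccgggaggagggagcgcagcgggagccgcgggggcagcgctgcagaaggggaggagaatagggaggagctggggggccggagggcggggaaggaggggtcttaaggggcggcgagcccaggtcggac
Acvr1b, chr15:101173822-101174071, plus strand: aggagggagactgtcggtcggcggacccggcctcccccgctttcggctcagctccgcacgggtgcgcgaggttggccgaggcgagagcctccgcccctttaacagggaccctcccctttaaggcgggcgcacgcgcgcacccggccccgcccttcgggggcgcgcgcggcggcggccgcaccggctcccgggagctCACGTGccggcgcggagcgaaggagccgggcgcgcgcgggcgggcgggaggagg
The Mstn window held 4 E-boxes and 2 SMAD boxes at a GC content of 38.4%, with 3 CpG sites. The Fstl1 window held neither motif at 68% GC with 16 CpG sites, and the Acvr1b window held 1 E-box, CACGTG, 54 to 49 bases before the start, at 78.8% GC with 42 CpG sites. Of 27025 promoters of the same length, 66% hold an E-box and 42.1% a SMAD box, so a match in these windows is a description and no sign of binding.

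In contralateral mouse muscle, level per kilobase of gene length (summed exons of the mouse annotation) was highest for Smad3 at 24.7 CPM per kb, followed by Acvr1b at 17.98 and Mstn at 15.2. Fstl1 had 7.05 and Acvr2a 4.50 CPM per kb. Smad7, Acvr2b and Tgfb1 lay at 1.57, 1.10 and 1.03 CPM per kb, and the ligand-binding proteins Fstl3 and Fst were lowest at 0.423 and 0.378. By this measure Smad3 and Acvr1b stood above the secreted binding proteins in muscle that was not stimulated.

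Mstn (mouse chromosome 1, 53100799 to 53107238, GRCm39) was lower in the stimulated mouse muscle at every length of training. It had 34.0 to 48.98 CPM (median 44.0) in the 9 contralateral legs. The legs trained for 2 days had 24.1 and 32.5 CPM, those trained for 10 days 30.1, 25.1 and 19.9, and those trained for over 17 days 18.7, 24.3 and 22.3. All 8 trained legs lay below all 9 contralateral legs, and each lay below the other leg of the same mouse. The log2 change was -0.54 ± 0.17 after 2 days (adjusted p = 0.0471), -0.71 ± 0.14 after 10 days (adjusted p = 0.00459) and -0.90 ± 0.14 after over 17 days (adjusted p = 0.000617). Over the mean of the trained groups it was -0.72 ± 0.10, or 0.61 times the contralateral level (adjusted p = 0.000105). The fall after over 17 days and that over the trained groups kept their calls in every alternative, with adjusted p of 0.000312 to 0.00912 and 7.08e-05 to 0.00104. The 2-day call rested on leg TAL344 (adjusted p = 0.743 without it) and the 10-day call on leg TAL342 (0.0654). In the fit that pairs the legs of each animal these adjusted p were 0.322 and 0.0906, and the 2-day call was also lost with no filter on low values (0.0583) and without any of 5 contralateral legs, TAR337, TAR342, TAR343, TAR348 and TAR349, at 0.0659 to 0.07. Over all its alternatives the 2-day adjusted p ran from 0.0161 to 0.743 and the 10-day one from 0.00286 to 0.0906. In RNA of whole muscle, fewer cells of a type and less RNA per cell cannot be told apart.

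**Figure D1:**
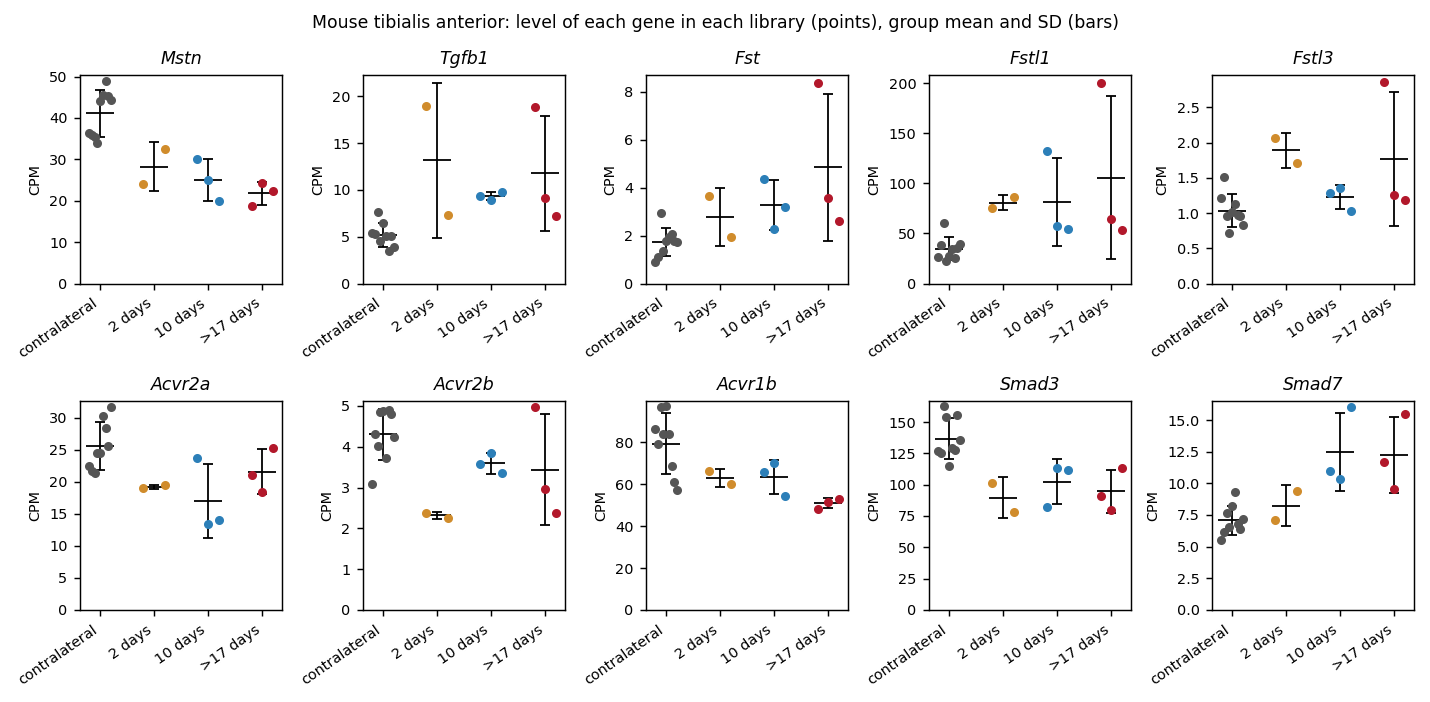
CPM of the 10 genes in each mouse library, with 1 point per leg and bars for the group mean and SD (9 contralateral legs, 2 legs at 2 days, 3 at 10 days, 3 at over 17 days). Mstn and Smad3 lie lower in all 8 trained legs than in any contralateral leg, and Fst, Fstl1, Fstl3 and Tgfb1 have a trained leg far above the rest of its group at over 17 days (leg TAL337).

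Tgfb1, which encodes the growth factor TGF-beta, went the other way. The contralateral legs had 3.46 to 7.60 CPM (median 5.11). The 2-day legs had 19.0 and 7.31 CPM, the 10-day legs 9.34, 8.90 and 9.74, and the legs trained longest 18.8, 9.19 and 7.27. The 10-day legs stood above every contralateral leg, and 1 leg in each of the other groups lay inside the contralateral range. The change was 1.14 ± 0.31 after 2 days (adjusted p = 0.027), 1.02 ± 0.26 after over 17 days (adjusted p = 0.0212) and 0.99 ± 0.19 over the trained groups (adjusted p = 0.0017). After 10 days it was 0.81 ± 0.26 and missed the threshold (adjusted p = 0.0851). The 2-day call rested on leg TAL344 (0.48 without it, adjusted p = 0.798, over a range of 0.00153 to 0.798) and was not met with paired legs (0.0715). The call after the longest training rested on leg TAL337 (0.64 without it, adjusted p = 0.205, over a range of 0.00629 to 0.205). Over the trained groups the call held in every alternative, with the change between 0.77 and 1.21 when any 1 leg was left out and an adjusted p of at most 0.01.

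The follistatin genes were higher in trained mouse muscle. Fst, encoding follistatin, had 0.899 to 2.95 CPM (median 1.77) in contralateral legs. It had 3.65 and 1.94 CPM after 2 days, 4.38, 2.26 and 3.20 after 10 days and 8.35, 3.56 and 2.63 after over 17 days. Each trained group thus overlapped the contralateral range at its lowest leg. Fst rose by 1.15 ± 0.29 on the log2 scale after over 17 days (adjusted p = 0.0179), but not without leg TAL337 (0.72, adjusted p = 0.182, over a range of 0.00849 to 0.182). Over the trained groups it rose by 0.82 ± 0.21 (adjusted p = 0.0124), and this call was lost without leg TAL344 alone (0.0628, over a range of 0.00414 to 0.0628).

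Fstl1 had the largest rise of the 10 genes in mice. Its level was 23.0 to 60.9 CPM (median 34.6) in contralateral legs, where leg TAR340 was the highest and the other 8 had at most 39.9. It was 75.2 and 86.2 CPM after 2 days, 132, 57.0 and 54.5 after 10 days and 199.8, 64.1 and 53.6 after over 17 days. Apart from leg TAR340, every contralateral leg lay below every trained leg. The change over the trained groups was 1.27 ± 0.25, or 2.41 times the contralateral level (adjusted p = 0.00178), and it kept its call in every alternative. After over 17 days it was 1.40 ± 0.34 (adjusted p = 0.0147), and 0.81 without leg TAL337 (adjusted p = 0.158, over a range of 0.00594 to 0.158). The values after 2 days, 1.27 ± 0.40 (adjusted p = 0.0524), and 10 days, 1.15 ± 0.34 (adjusted p = 0.0558), missed the threshold. Both passed it without leg TAR340, at adjusted p of 0.0269 (over a range of 0.00991 to 0.393) and 0.0222 (over a range of 0.0143 to 0.315).

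Fstl3, a relative of follistatin that binds the same kind of ligands, had the fewest reads of the 10 genes, 25 in the lowest library. It had 0.720 to 1.52 CPM (median 0.974) in contralateral legs, 2.07 and 1.71 after 2 days, 1.29, 1.36 and 1.04 after 10 days and 2.86, 1.25 and 1.19 after over 17 days. Only the 2-day legs stood clear of the contralateral range as a group. It was called over the trained groups, at 0.44 ± 0.15 (adjusted p = 0.0451), and in none of the groups alone (adjusted p of 0.0848, 0.685 and 0.133). The call was lost in 15 of 23 alternatives (adjusted p of 0.0232 to 0.131 over all of them), 0.0803 with paired legs among them. The highest came without leg TAL344.

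The receptor genes were lower. Acvr2a had 21.4 to 31.6 CPM (median 24.5) in contralateral legs, 19.0 and 19.4 after 2 days, 23.7, 13.4 and 14.0 after 10 days and 21.1, 18.4 and 25.3 after over 17 days. It fell by 0.61 ± 0.16 on the log2 scale after 10 days (adjusted p = 0.0273), through legs TAL341 and TAL342 (0.193 and 0.19 without either, over a range of 0.00244 to 0.193, and 0.186 with paired legs). Over the trained groups it fell by 0.41 ± 0.12 (adjusted p = 0.0193), with 0.0516 without leg TAL344 as the highest of its alternatives.

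Acvr2b, the other receptor that binds myostatin and activins, had 3.08 to 4.89 CPM (median 4.31) in contralateral legs. It had 2.37 and 2.26 CPM after 2 days, 3.58, 3.85 and 3.35 after 10 days and 4.98, 2.96 and 2.38 after over 17 days. The 2-day legs lay below every contralateral leg, and leg TAL337 was above all of them. After 2 days the change was -0.76 ± 0.20 (adjusted p = 0.0226), with adjusted p of 0.251 without leg TAL344, 0.0577 without leg TAL345 and 0.263 with paired legs (range 0.00468 to 0.263). Over the trained groups the change was -0.44 ± 0.13 (adjusted p = 0.0212, and 0.0669 with paired legs, over a range of 0.00229 to 0.0669). Without leg TAL337 the change after over 17 days was called at -0.60 (adjusted p = 0.0452, over a range of 0.0452 to 0.732), where with it the change was -0.33 ± 0.17 (adjusted p = 0.25).

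Acvr1b, the partner receptor with the kinase that acts on SMAD3, had 57.1 to 97.4 CPM (median 83.8) in contralateral legs. It had 66.1 and 59.9 CPM after 2 days, 65.7, 70.1 and 54.4 after 10 days, and 48.2, 51.3 and 52.9 after over 17 days. The legs trained longest all lay below the contralateral range, and in each of the 8 mice the trained leg was the lower of the pair. The change was -0.62 ± 0.14 after over 17 days (adjusted p = 0.0106), with 0.0622 without leg TAL337 and 0.0931 with paired legs over a range of 0.0029 to 0.0931. Over the trained groups it was -0.41 ± 0.11 (adjusted p = 0.0109) and called in every alternative.

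Inside the cell, Smad3 and the inhibitor Smad7 moved in opposite directions. Smad3, which carries the signal to the nucleus, had 115 to 162.5 CPM (median 129) in contralateral legs. It had 101 and 78.1 CPM after 2 days, 81.8, 114 and 112 after 10 days and 91.3, 79.5 and 113 after over 17 days, so that all 8 trained legs lay below all 9 contralateral legs. The log2 change was -0.61 ± 0.15 after 2 days (adjusted p = 0.0203), -0.53 ± 0.13 after over 17 days (adjusted p = 0.0162) and -0.52 ± 0.10 over the trained groups (adjusted p = 0.00115). The last of these was called in every alternative. The 2-day call was lost without leg TAL344 (0.0601), without leg TAL345 (0.133) and with paired legs (0.174), over a range of 0.00845 to 0.174. The call after the longest training was lost without leg TAL337 (0.0775), without leg TAL343 (0.11) and with paired legs (0.106), over a range of 0.00899 to 0.11. After 10 days the change was -0.42 ± 0.13 (adjusted p = 0.0714).

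Smad7 had 5.49 to 9.29 CPM (median 6.75) in contralateral legs. It had 7.09 and 9.36 CPM after 2 days, 11, 10.4 and 15.99 after 10 days and 11.7, 9.58 and 15.5 after over 17 days. The 10-day legs and the legs trained longest were all above the contralateral range, and 1 of the 2-day legs was inside it. Smad7 rose by 0.76 ± 0.17 after 10 days (adjusted p = 0.0103), by 0.74 ± 0.17 after over 17 days (adjusted p = 0.00944) and by 0.57 ± 0.12 over the trained groups (adjusted p = 0.00357). The 10-day call was lost without leg TAL342 (0.118) and with paired legs (0.0559), over a range of 0.00486 to 0.118. The call after the longest training was lost without leg TAL349 (0.0627, over a range of 0.00591 to 0.0627), and the call over the trained groups in no alternative. After 2 days the change was 0.20 ± 0.20 (adjusted p = 0.53).

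**Figure D2:**
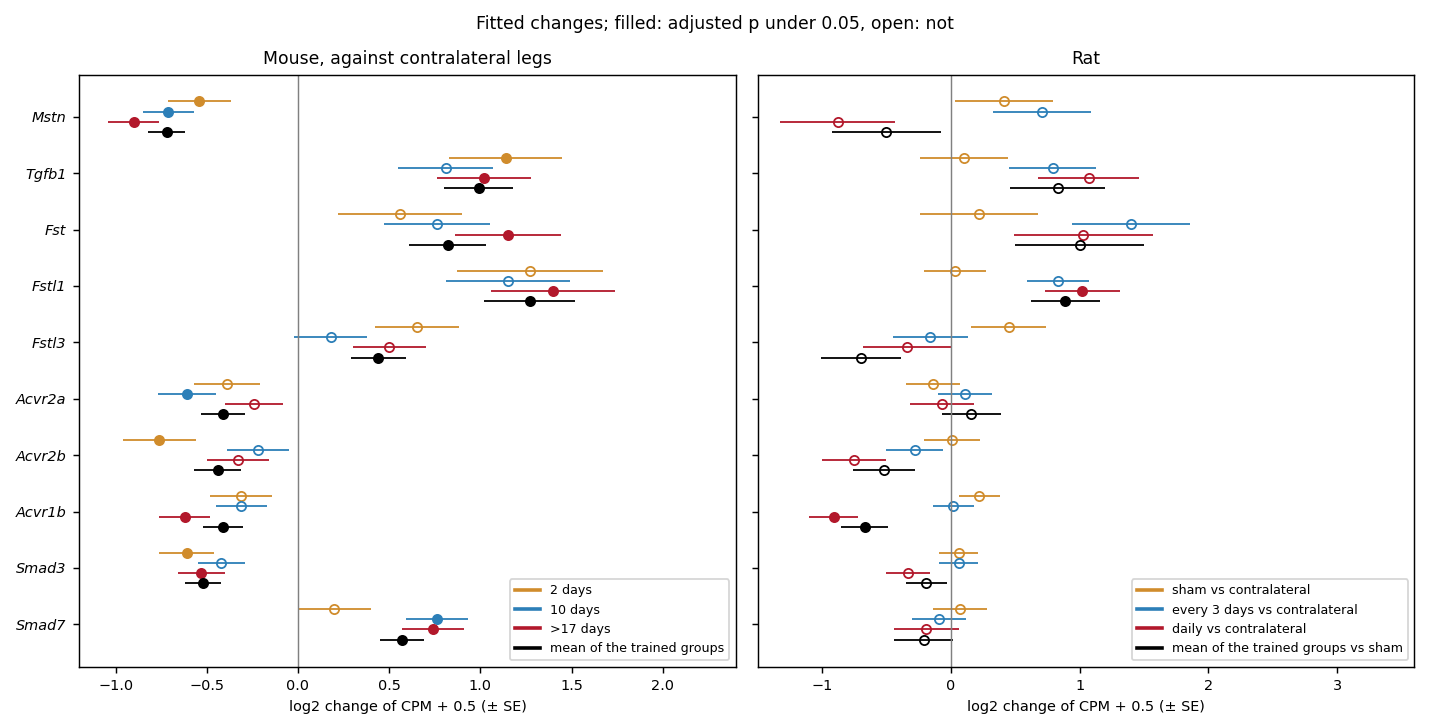
Fitted log2 change of CPM + 0.5 for each gene with its SE, in mice (left) against contralateral legs and in rats (right) against contralateral or sham legs; a filled point has an adjusted p under 0.05 and an open one does not. Mean changes over the trained mouse groups run from -0.72 for Mstn to 1.27 for Fstl1, and the 4 filled points in rats belong to Fstl1 and Acvr1b.

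By count, 4 of the 10 genes were called after 2 days (Tgfb1 higher, Mstn, Acvr2b and Smad3 lower), against 9.72% of all genes tested (7.32% higher and 2.4% lower). After 10 days 3 of 10 were called (Smad7 higher, Mstn and Acvr2a lower), against 5.53% of all genes (3.61% higher and 1.92% lower). After over 17 days 7 of 10 were called (Fst, Fstl1, Smad7 and Tgfb1 higher, Mstn, Acvr1b and Smad3 lower), against 8.78% of all genes (6.3% higher and 2.48% lower). Over the mean of the trained groups all 10 were called, with 5 higher and 5 lower, against 17.6% of all genes (12.4% higher and 5.25% lower). The 10 genes, and the lists used further below, were chosen with earlier results of these data known. Their counts therefore describe them and test no excess over all genes. Of the genes not called, the changes after 2 days were 0.56 ± 0.34 for Fst (adjusted p = 0.306), -0.39 ± 0.18 for Acvr2a (adjusted p = 0.179) and -0.31 ± 0.17 for Acvr1b (adjusted p = 0.239). After 10 days they were 0.76 ± 0.29 for Fst (adjusted p = 0.149), -0.22 ± 0.17 for Acvr2b (adjusted p = 0.523) and -0.31 ± 0.14 for Acvr1b (adjusted p = 0.241). The median change of the 10 genes over the trained groups was 0.01, beside 0.06 for all genes tested, because the directions balance. With paired legs the counts were 0, 0, 5 and 8, and without leg TAL337 the count after over 17 days was 3. Without leg TAL344 it was 0 after 2 days, with the 1 leg left assumed to vary like the other groups, and 7 over the trained groups.

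None of the 10 genes was called between over 17 days and 2 days of training, where 0.586% of all genes were called, and 1 had an unadjusted p under 0.05. That gene was Smad7, at 0.53 ± 0.23 (adjusted p = 0.261), with all 3 legs of the longer training above both 2-day legs. Mstn differed by -0.36 ± 0.19 (adjusted p = 0.363) and Fst by 0.60 ± 0.40 (adjusted p = 0.473), both with overlapping groups. The number of genes called depended on both 2-day legs, at 80 with both, 15 without leg TAL344 and 2244 without leg TAL345, and it was 1 with paired legs. None of the 10 genes was among them in any of these.

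Set against the other leg of the same mouse, Mstn, Acvr1b and Smad3 were lower in 8 of 8 mice, and Fst, Fstl1, Fstl3, Smad7 and Tgfb1 were higher in 8 of 8. Acvr2a and Acvr2b were lower in 7 of 8, with the exceptions in a 10-day mouse for Acvr2a (0.15 on the log2 scale) and in a mouse trained over 17 days for Acvr2b (0.38). Mstn differed between legs by -0.14 and -0.59 after 2 days, by -0.23 to -1.13 after 10 days and by -0.98 to -1.26 after over 17 days. Fstl1 had the widest spread, from 0.42 to 2.51, both within the mice trained longest. The mouse of leg TAL345 had the smallest Mstn difference of the 8. How many of all genes tested went 1 way in every mouse was not counted, so these counts describe the 10 genes alone.

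**Figure D3:**
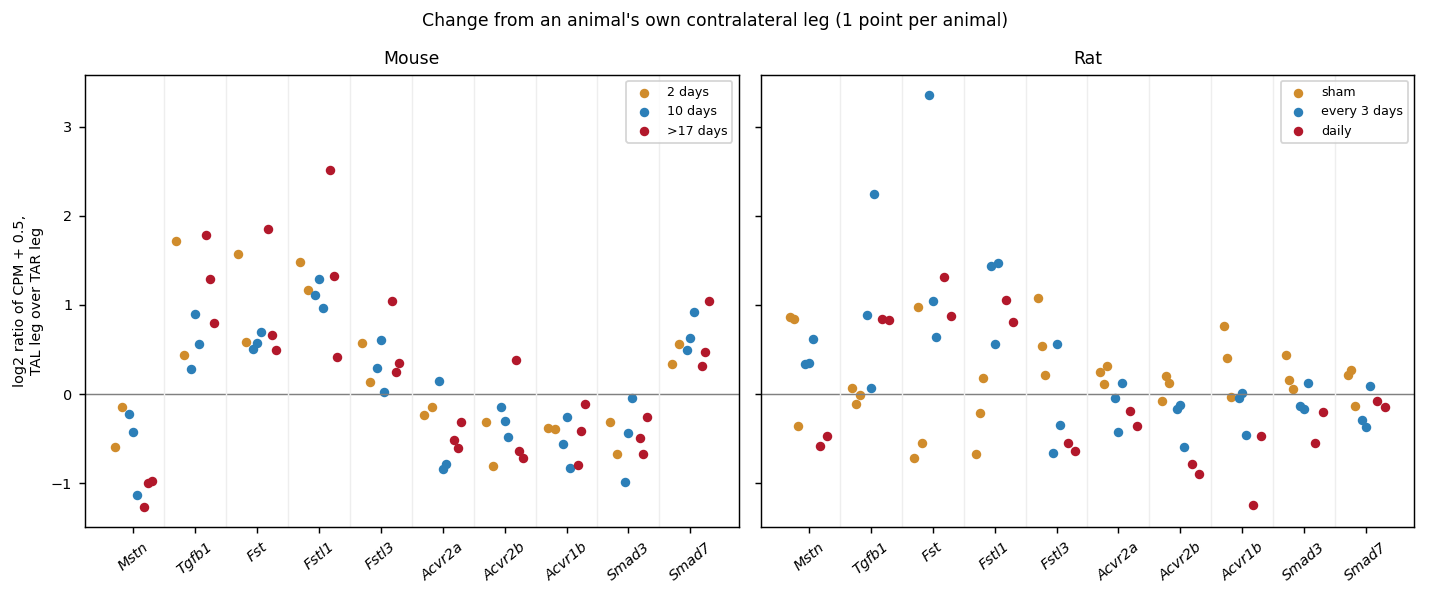
Log2 ratio of CPM + 0.5 between the TAL leg and the TAR leg of each animal, 1 point per animal, for 8 mice (left) and 8 rats (right, 3 of them with sham surgery). In mice 8 of the 10 genes lie on 1 side of 0 in every animal, and in rats Fst, Fstl1 and Tgfb1 lie above 0 in all 5 trained rats and Acvr2b below 0 in all 5. The share of all genes tested that do so was not counted in either species.

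In rats the contralateral order per kilobase of deposited transcript length was like that in mice at the top, with Smad3 at 55.1 CPM per kb, Acvr1b at 11.9, Mstn at 6.52, Fstl1 at 5.08 and Acvr2a at 4.55. Smad7 at 2.52, Tgfb1 at 2.49, Acvr2b at 1.51, Fst at 0.91 and Fstl3 at 0.846 followed. These values depend on the transcript model, 771 bases for Fstl3 and 5037 for Smad3. Fstl3 had few reads, with an estimated 4 to 25 in every rat leg.

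Acvr1b (rat chromosome 7, 132286285 to 132327480, rn7) was lower in the daily trained rats. It had 21.1 to 33.2 CPM (median 26.7) in the 8 contralateral legs, 36.1, 31.9 and 27.0 in sham legs, 32.2, 26.7 and 23.5 in legs trained every 3 days, and 11.05 and 17.96 in legs trained daily. Both daily legs lay below every other rat leg. The change was -0.91 ± 0.19 against contralateral legs (adjusted p = 0.0055) and -1.13 ± 0.22 against sham legs (adjusted p = 0.00337), where the daily level was 0.46 times the sham level. Both calls rested on leg TAL292 (-0.57, adjusted p = 0.331, and -0.79, adjusted p = 0.145, without it) and were not met with paired legs (0.0916 and 0.0856). Their ranges over all alternatives were 0.00327 to 0.331 and 0.00187 to 0.145. Daily against every 3 days the change was -0.93 ± 0.22 and missed the threshold (adjusted p = 0.154). Over the mean of the trained groups against sham it was -0.67 ± 0.18 (adjusted p = 0.0227), lost without leg TAL292 (0.126), TAL296 (0.129) or TAL297 (0.0901) and with paired legs (0.0912), over a range of 0.00641 to 0.129.

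Fstl1 was higher in trained rats too. Contralateral legs had 6.98 to 19.7 CPM (median 11), with leg TAR296 the highest and the other 7 at 12.1 or less. Sham legs had 12.2, 8.94 and 13.4 CPM, legs trained every 3 days 29.0, 13.6 and 20.3, and legs trained daily 25.7 and 20.6. All 5 trained legs stood above all 3 sham legs, and both daily legs above every contralateral leg. The change was 1.02 ± 0.29 in daily against contralateral legs (adjusted p = 0.0335) and 0.89 ± 0.27 over the trained groups against sham (adjusted p = 0.0407). The first was lost without leg TAL292 (0.401), TAL294 (0.104), TAR295 (0.052) or TAR298 (0.0504) and with paired legs (0.102), over a range of 0.00766 to 0.401. The second was lost without any of 6 legs, TAL292 (0.146), TAL294 (0.0569), TAL295 (0.0832), TAL299 (0.0692), TAL296 (0.103) and TAL297 (0.208), and also with no filter on low values or with median-of-ratios rescaling. Its range was 0.0181 to 0.208, and it held with paired legs (0.0356). Every 3 days against contralateral legs, the value of Fstl1 was 0.83 ± 0.24 at an adjusted p of 0.0509, just over the threshold, and with paired legs 1.16 ± 0.22 (adjusted p = 0.0124). It was also under the threshold without leg TAL298 (0.0214), TAR296 (0.0115) or TAR299 (0.0488), with an offset of 1 in place of 0.5 and with median-of-ratios rescaling, over a range of 0.0115 to 0.355.

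**Figure D4:**
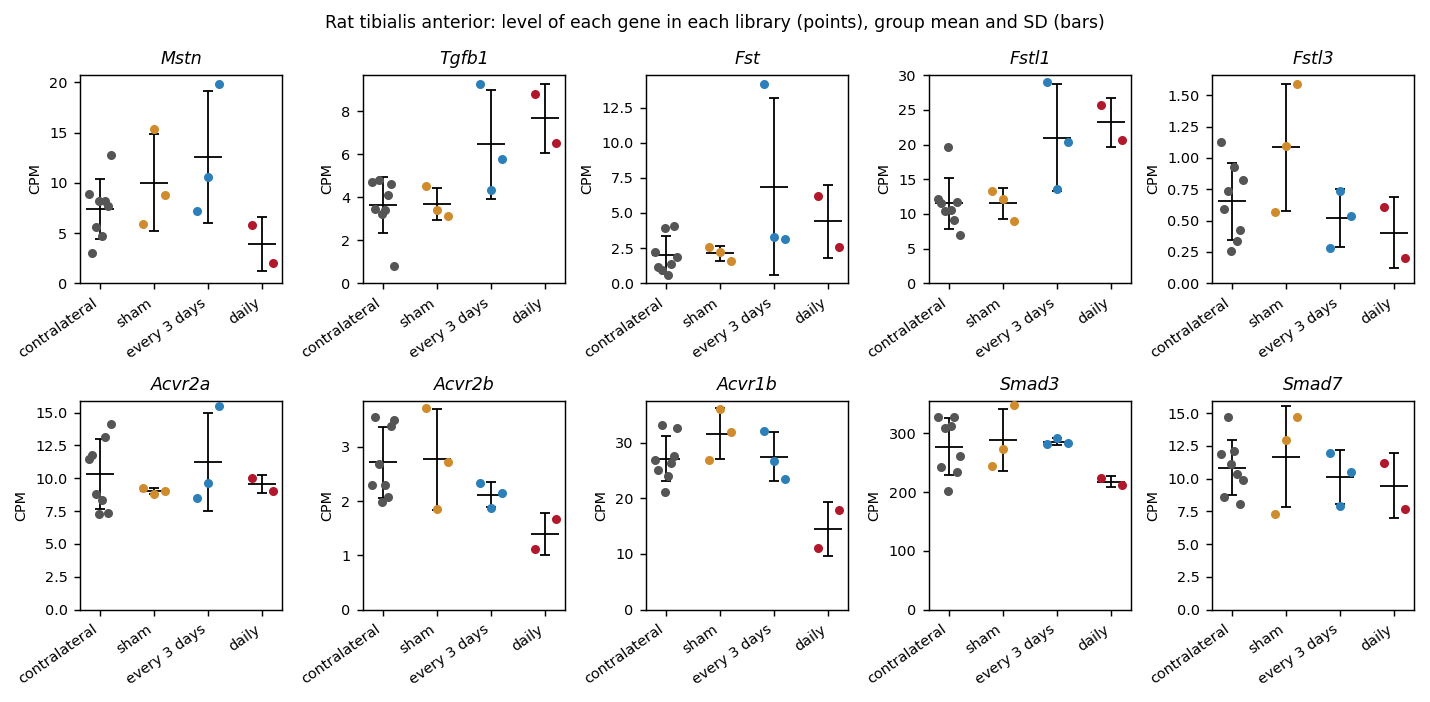
CPM of the 10 genes in each rat library, with 1 point per leg and bars for the group mean and SD (8 contralateral legs, 3 sham, 3 trained every 3 days, 2 trained daily). The 2 daily legs lie below all other legs for Acvr1b, and above all contralateral and sham legs for Fstl1 and Tgfb1.

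Fst and Tgfb1 were higher than in the animal's own contralateral leg in 5 of 5 trained rats, and neither was called in any comparison of the main fit. The share of all genes that went 1 way in all 5 was not counted. Fst had 0.559 to 4.06 CPM in contralateral legs, 2.19, 1.59 and 2.61 in sham legs, 14.2, 3.30 and 3.15 in legs trained every 3 days and 6.22 and 2.58 in daily legs. Leg TAL295 holds the highest value by far, and each trained group otherwise overlapped the contralateral range. Its change every 3 days against contralateral legs was 1.40 ± 0.46 (adjusted p = 0.0806), and 0.74 without leg TAL295. Without leg TAR296 or TAR300 it was called (adjusted p of 0.0487 and 0.0498, over a range of 0.0487 to 0.513). Tgfb1 had 0.821 to 4.78 CPM in contralateral legs, 3.39, 3.11 and 4.54 in sham legs, 9.28, 4.33 and 5.77 in legs trained every 3 days and 8.81 and 6.53 in daily legs. Both daily legs were above all contralateral and sham legs, at a change of 1.07 ± 0.39 against contralateral (adjusted p = 0.104). Without leg TAR299, the shallow library in which Tgfb1 had 4 reads, the change was 0.85 and was called (adjusted p = 0.0269, over a range of 0.0269 to 0.557).

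Mstn in rats did not follow the mouse pattern in each group. It had 3.01 to 12.7 CPM (median 7.93) in contralateral legs, 15.3, 8.82 and 5.86 in sham legs, 7.18, 10.6 and 19.9 in legs trained every 3 days and 5.79 and 2.02 in daily legs. Only the daily legs lay below every sham leg and every leg trained every 3 days, and both were inside the contralateral range or under it. Against the animal's own contralateral leg, Mstn was lower in 2 of 2 daily rats, by -0.47 and -0.58 on the log2 scale, and higher in 3 of 3 rats trained every 3 days, by 0.34 to 0.62. The difference between these groups, -1.59 ± 0.52, missed the threshold (adjusted p = 0.549), as did the difference of own-leg changes, -0.96 ± 0.38 (adjusted p = 0.937). Daily against sham it was -1.30 ± 0.52 (adjusted p = 0.137) and daily against contralateral -0.88 ± 0.45 (adjusted p = 0.249).

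Acvr2b was lower than in the own contralateral leg in 5 of 5 trained rats and was not called. It had 1.99 to 3.55 CPM in contralateral legs, 1.86, 2.73 and 3.72 in sham legs, 2.33, 1.87 and 2.15 every 3 days and 1.12 and 1.67 daily. Both daily legs lay below all other rat legs, at -0.75 ± 0.25 against contralateral (adjusted p = 0.0768). Acvr2a, at 7.31 to 15.5 CPM in every rat leg, and Smad7, at 7.32 to 14.7 CPM, overlapped between all groups, with differences between groups of at most 0.25 on the log2 scale. The Acvr2a value was 0.07 daily against sham and 0.16 for the trained groups against sham. With paired legs, as a difference of own-leg changes, these were -0.50 (adjusted p = 0.434) and -0.42 (adjusted p = 0.334). Smad3 had 202 to 328 CPM in contralateral legs and 224 and 212 in daily legs, a change of -0.33 ± 0.17 (adjusted p = 0.257). Fstl3 had 0.257 to 1.12 CPM in contralateral legs, 1.09, 1.59 and 0.572 in sham legs, 0.280, 0.738 and 0.536 every 3 days and 0.604 and 0.202 daily, and its change daily against sham was -0.79 ± 0.39 (adjusted p = 0.231).

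By count, 2 of the 10 genes were called in daily against contralateral rat legs, 1 higher and 1 lower, against 8.22% of all genes tested (5.33% higher and 2.89% lower), and 0 with paired legs. In daily against sham legs 1 was called, lower, against 8.14% (5.53% higher and 2.61% lower), and 0 with paired legs. Over the trained groups against sham 2 were called, 1 each way, against 9.83% (7.32% higher and 2.51% lower), and 1 with paired legs. None was called every 3 days against contralateral legs (6.66% of all genes, 4.96% higher and 1.7% lower, 3 members at an unadjusted p under 0.05, and 1 member with paired legs) or against sham (4.25% of all genes, 3.55% higher and 0.695% lower, 2 members unadjusted). The 2 were Fst at 1.18 ± 0.55 (adjusted p = 0.302) and Fstl1 at 0.79 ± 0.29 (adjusted p = 0.169), and in both the legs trained every 3 days lay above all sham legs. The other 8 ran from -0.61 ± 0.35 for Fstl3 to 0.69 ± 0.41 for Tgfb1. None was called in daily against every 3 days (0.0869% of all genes, 2 members unadjusted). Sham against contralateral legs gave 0 members and 0% of all genes by limma, with 63 genes higher and 219 lower at an unadjusted p under 0.05 and 0 of the 10 among them. The changes of the 10 genes in sham legs ran from -0.14 for Acvr2a to 0.45 for Fstl3.

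Of 61 other genes of the pathway, listed by role, 55 were tested in mice and 48 in rats. Over the trained mouse groups 14 rose and 5 fell, with a median change of 0.16 beside 0.06 for all genes, and 10 to 19 rose and 2 to 7 fell when any 1 leg was left out. The share of all genes was 12.4% higher and 5.25% lower there. After 2 days 4 rose and 2 fell, a share close to that of all genes (7.32% higher and 2.4% lower), with 1 higher without leg TAL344 and 9 without leg TAL345. After 10 days 5 rose and 1 fell (3.61% and 1.92% of all genes), and after over 17 days 10 rose and 2 fell (6.3% and 2.48%), with 6 higher without leg TAL337. In rats 5 rose and 2 fell over the trained groups against sham (7.32% and 2.51% of all genes), with a median of 0.18 beside 0.08 for all genes. Without leg TAL292, TAL297 or TAL300 these rat counts were 3 and 1. Of the ligands 2 of 11 rose and 1 fell in mice, and 0 of 8 were called in rats. Of the other receptors 1 of 9 rose in mice and 0 of 9 in rats. Of the extracellular regulators 3 of 15 rose and 2 fell in mice, and 2 of 14 rose and 2 fell in rats. Of the intracellular genes 3 of 13 rose and 2 fell in mice, and 0 of 10 were called in rats. The mouse ligands called, named after their values were seen, were the activin subunit Inhbb (0.59 ± 0.20, adjusted p = 0.0493), Tgfb2 (0.30 ± 0.10, adjusted p = 0.0395) and Bmp6 (-0.48 ± 0.13, adjusted p = 0.0144). The mouse receptor called, named in the same way, was the TGF-beta receptor Tgfbr2 (0.48 ± 0.15, adjusted p = 0.0319). Targets held the highest share, with 5 of 7 higher in mice and 3 of 7 in rats and none lower. Of the 3 in rats, Id1 and Id3 were not called with paired legs (adjusted p of 0.422 and 0.102). Id3 (0.85, adjusted p = 0.027) lost its call in 5 of 15 alternatives.

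**Figure D5:**
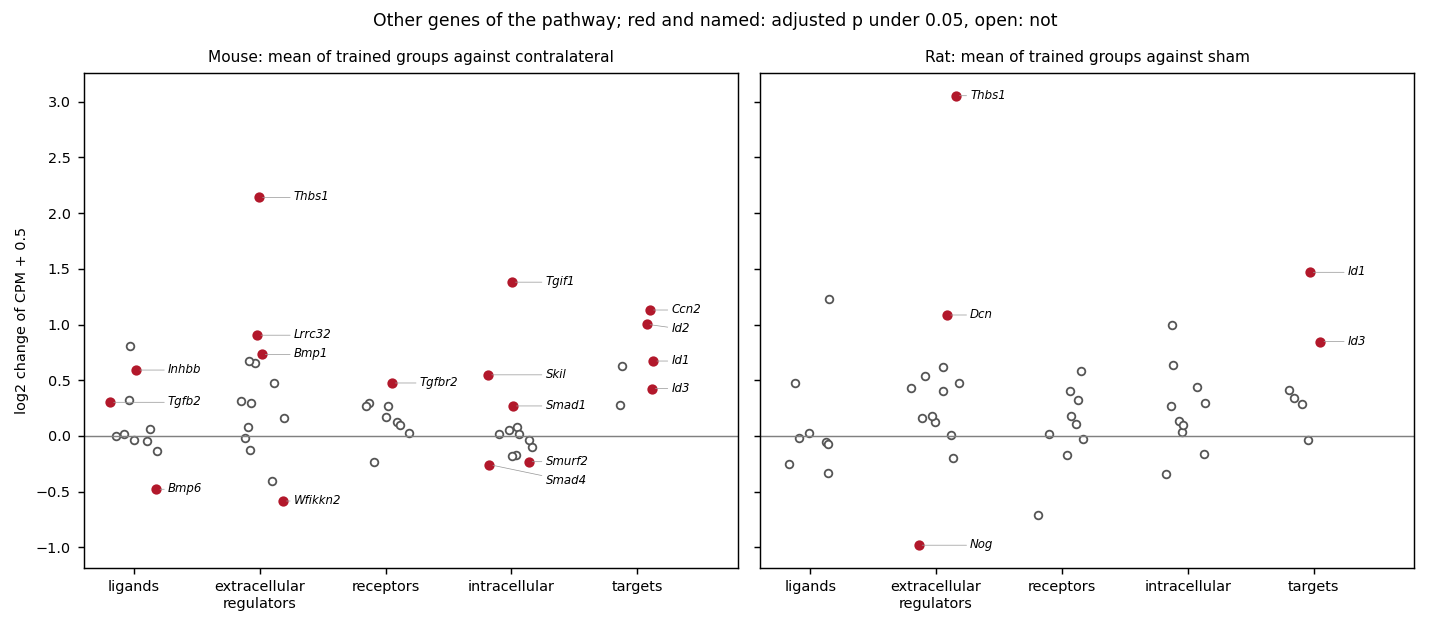
Log2 change of CPM + 0.5 of the other pathway genes by role, as the mean of the trained groups against contralateral legs in mice (left, 53 genes shown) and against sham legs in rats (right, 46 genes shown). Red points with names have an adjusted p under 0.05, and Thbs1 is the highest point shown in both species, at 2.14 in mice and 3.05 in rats.

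Thbs1 encodes thrombospondin, which can release TGF-beta from its latent form. Over the trained groups it rose by 2.14 ± 0.29 in mice against contralateral legs (adjusted p = 5.72e-05). In rats it rose by 3.05 ± 0.27 against sham legs (adjusted p = 8.72e-07). It had 2.47 to 22.2 CPM in contralateral mouse legs and 21.9 to 53.9 in trained ones, and 1.52 to 2.29 CPM in sham and 10.9 to 34.4 in trained rat legs. The highest contralateral mouse leg lay just above the lowest trained one, and the rat groups did not overlap. Both calls over the trained groups held in every alternative. Rat contralateral legs had 2.85 to 5.13 CPM, and against them the changes of Thbs1 were smaller. They were 1.87 ± 0.29 in daily legs (adjusted p = 0.000564) and 2.46 ± 0.25 every 3 days (adjusted p = 3.79e-06). The daily one was not called without leg TAL292. In mice Thbs1 also had a call after 2 days that was lost without leg TAL344 (0.0732, over a range of 0.000294 to 0.0732) and one after 10 days that was lost without leg TAL340 (0.0559, over a range of 0.000349 to 0.0559).

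Wfikkn2, encoding a secreted protein that binds and inhibits myostatin and GDF11, had 15.5 to 20.7 CPM in contralateral mouse legs, 11.6 and 18 after 2 days, 10.4 to 14.5 after 10 days and 6.87 to 8.77 after over 17 days. All legs trained for 10 days or more lay below the contralateral range. Its change was -1.09 ± 0.13 after over 17 days (adjusted p = 4.79e-05), called in every alternative, and -0.58 ± 0.10 over the trained groups (adjusted p = 0.000364). The BMP antagonist Nog fell in daily rat legs by 1.48 ± 0.28 against contralateral legs (adjusted p = 0.00295), and not without leg TAL292 (0.173, over a range of 0.00197 to 0.173).

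In mice Lrrc32, which displays latent TGF-beta on the cell surface, rose by 0.90 ± 0.13 over the trained groups (adjusted p = 0.000133), and Tgif1, a corepressor of SMAD-driven transcription, by 1.38 ± 0.18 (adjusted p = 4.84e-05). The target genes Ccn2, for a matricellular growth factor, and Id1, for an inhibitor of helix-loop-helix factors, rose by 1.13 ± 0.21 (adjusted p = 0.00103) and 0.67 ± 0.14 (adjusted p = 0.00343). These 4 calls held in every alternative. In rats Id1 rose by 1.47 ± 0.34 over the trained groups against sham (adjusted p = 0.00924). With paired legs, as a difference of own-leg changes, Id1 had 0.44 (adjusted p = 0.422, over a range of 0.000266 to 0.422). Its relative Id3 rose by 1.26 ± 0.25 in daily against contralateral legs (adjusted p = 0.00368), and not without leg TAL292 (0.132, over a range of 0.000867 to 0.132). Smad2, the close relative of Smad3, fell by 0.57 ± 0.12 in the same comparison (adjusted p = 0.00643). That call was lost without leg TAL292 (0.0821) or TAL294 (0.0977), with paired legs (0.106) and when the most abundant transcript model alone was used (0.676, over a range of 0.00281 to 0.676). Dcn, encoding the matrix proteoglycan decorin, which binds TGF-beta and is also a fibroblast marker here, was called over the trained rats against sham (1.09 ± 0.33, adjusted p = 0.0479) and lost the call in 11 of 15 alternatives (range 0.0159 to 0.242).

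Of the marker lists of other cell types, those of fibroblasts and macrophages had the most calls over the trained mouse groups. There 12.4% of all genes were higher and 5.25% lower. The 9 fibroblast and fibro-adipogenic markers had 7 higher and none lower over the trained mouse groups (5 to 9 higher when any 1 leg was left out, the fewest without leg TAL344), with a median change of 0.88. Their summed level was 234 to 760 CPM in contralateral legs, 837 and 1020 after 2 days, 760 to 2260 after 10 days and 735 to 2710 after over 17 days. Legs TAL340 and TAL337, highest in these sums at 2260 and 2710 CPM, were also the highest of their groups for Fst, Fstl1 and, at over 17 days, Tgfb1 and Fstl3, and leg TAR340 was the highest contralateral leg for the markers, Fst, Fstl1 and Tgfb1. The 10 macrophage markers had 7 higher and none lower (4 to 10 when any 1 leg was left out, the fewest without leg TAL344), with 41.1 to 191 CPM in contralateral legs, 126 and 274 after 2 days, 117 to 261 after 10 days and 67.1 to 725 after over 17 days. Leg TAL337 again held the highest value, and leg TAL344 the higher of the 2-day values. A few genes make up most of these sums. Among mouse fibroblast markers Col3a1 reached 1220 CPM, Col1a1 903 and Dcn 359, and no other more than 71.5. Among mouse macrophage markers Lyz2 reached 497 CPM and no other more than 44.4. In rats Col3a1 reached 1310 CPM and Lyz2 52.7.

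Fibroblast markers in rats summed to 339 to 816 CPM in contralateral, at most 660 in sham, 774 to 2310 in every-3-days and 1340 to 1520 in daily legs. Over the trained groups against sham 4 of 9 were higher and none lower, beside 7.32% and 2.51% of all genes. When any 1 leg was left out 0 to 6 were higher, none without sham leg TAL297. The highest sum, in leg TAL295, was in the leg with the highest Fst, Fstl1 and Tgfb1 of the trained rats. Of the 10 macrophage markers none was called in any rat comparison of the main fit, but 2 were higher every 3 days against contralateral legs with paired legs, and 1 in daily against contralateral without leg TAR296. Their sums were 21.7 to 76.2 CPM outside leg TAL295, where the sum was 117. Muscle fibre markers had 2 of 8 lower and 1 higher over the trained mouse groups (0 to 2 lower and 1 to 2 higher when any 1 leg was left out, none lower without leg TAL344). In daily against contralateral rat legs 2 of 7 were lower and 1 higher (1 to 3 lower and 0 to 1 higher, none higher without either daily leg). Of the 7 endothelial markers 1 was lower after 2 days in mice (0 without leg TAL344, 5 without leg TAL345 and 0 with paired legs), where leg sums were 244 and 374 CPM against 332 to 535. Satellite cell markers had 1 of 4 tested higher and none lower over the trained mouse groups, with sums of 16 to 32.2 CPM in every mouse leg. When any 1 leg was left out 0 to 1 were higher and 0 to 1 lower, with 1 lower without leg TAL340 or TAL349 among these. No smooth muscle or Schwann cell marker was called in mice in the main fit. With paired legs 1 smooth muscle marker was lower over the trained mouse groups, and without leg TAL345 2 of them and 1 Schwann cell marker were lower after 2 days. The trained rats against sham had a call for 1 of 5 smooth muscle and none of 4 Schwann cell markers tested. Schwann cell markers summed to 110 CPM in mouse leg TAL337 against 16.2 to 42.5 in the other mouse legs, and to 120 CPM in rat leg TAR296 against 6.47 to 42.7. Only the Schwann marker Sox10 was at 0 in any library, a single rat one. The part of these cell types in the changes of the 10 genes was not tested.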

How the data were processed

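RNA came from whole muscle by Trizol followed by RNeasy columns, with libraries made by an Illumina kit, per the labels' protocols. The authors deposited 1 table of CPM values per species, to which an offset of 0.0001 had been added and was subtracted here. The named builds are GRCm39, mm10 and rn7, and the named tools DESeq2, Partek and STAR 2.7.8a, per the submitters' processing notes, with no role given for each. Coordinates printed here are on GRCm39 (mouse) and rn7 (rat), and promoters are RefSeq's on another build, GRCm38.p6. Mouse ends are the deposited ends less 1 base, which matched the annotation in 15 of 15 mitochondrial genes compared. Rat ends are as deposited, and their convention was not checked.

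Of 21345 mouse rows, 23 that share a symbol with a more abundant row were left out. The 13166 transcript models of the rat were summed to 12411 symbols, 492 of them with more than 1 model. Whole reads could not be recovered (85.4 to 87.5% of low values in mice and 88.3 to 90.7% in rats came out whole at a tolerance of 0.05, where 95% was needed), so no count test was run, and the depths given are estimates. Genes with a CPM of at least 1 in at least 2 libraries entered limma 3.58.1 (R 4.3.3, trend, 2-sided) on log2(CPM + 0.5), with all groups of a species sharing 1 spread and Benjamini-Hochberg adjustment over all genes in each of 12 comparisons. "Trained groups" means their unweighted mean. Tables and figures used Python 3.11.15 with numpy 2.4.6, pandas 2.3.3 and matplotlib 3.10.9.

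The animal number pairs legs, since both come from 1 animal, and the paired fit has it as a block. Deviations of the legs of 1 animal correlated at 0.1206 to 0.3027 in mice, apart from the mouse of leg TAL345 at -0.0343, and at 0.0415 to 0.2558 in rats. On simulated data with the libraries' own spread, 45 to 94% of genes changed by 1 on the log2 scale were called, fewest in rat daily against sham legs. Of the calls made there, 2.7 to 7.74% were false, most in rat every 3 days against sham legs. Simulated legs were drawn independently, with no pairing by animal and no leg set apart from its group. Alternatives were offsets of 0.1 and 1, no filter, median-of-ratios rescaling, mouse mitochondrial genes left out, the groups compared alone, 1 transcript model per rat gene, the animal block and each leg left out.

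All 10 genes are counted in every comparison, with uncalled changes given in part. Of the pathway list the rule named at most the 8 called genes with the lowest adjusted p per species, and 4 mouse ligand and receptor genes were added after their values were seen. Some are counted with the list but not reported by name here. The genes and lists were chosen with earlier results of these data known.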

Additional observations from a re-analysis of the deposited data

Results flagged for a closer look

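The 10 genes were checked in the contralateral groups of both species, and in 3 of these 20 sets of values 1 library stood apart from the others, where chance alone gives about 1 in 20. Fstl1 was 60.9 CPM in mouse contralateral leg TAR340, with the other 8 contralateral legs at 23 to 39.9. The same leg had the highest fibroblast marker sum of its group, 760 CPM. In rats, Fstl1 was 19.7 CPM in contralateral leg TAR296, with the other 7 at 6.98 to 12.1, and this leg also had the highest fibroblast marker sum of its group, 816 CPM. Tgfb1 was 0.821 CPM in rat contralateral leg TAR299, with the others at 3.21 to 4.78. That value rests on 4 reads in the shallowest library, and it is the library whose removal brings Tgfb1 in daily legs under the threshold.

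In 4 cases every rat of 1 group moved one way from its own contralateral leg and every rat of another group the opposite way. These cases were picked by sign from all the genes followed here, over every pair of groups with own-leg changes in both species. In groups this small some such cases arise by chance alone. How many chance would give was not worked out, so the 4 cases are a description. For Mstn the mean change of daily rats (-0.58 to -0.47) minus that of rats trained every 3 days (0.34 to 0.62) was -0.96 on the log2 scale, and limma with paired legs did not call the difference (adjusted p = 0.937). Daily minus sham rats gave -1.21 for Fstl3 (-0.64 to -0.56 against 0.22 to 1.08, adjusted p = 0.318), -0.50 for Acvr2a (-0.36 to -0.19 against 0.11 to 0.31, adjusted p = 0.434) and -0.59 for Smad3 (-0.55 to -0.20 against 0.06 to 0.44, adjusted p = 0.195). With 2 daily rats, none of these differences was beyond the spread between animals by that test.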

How the results depend on the processing

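Of 29 calls of the 10 genes over 12 comparisons, 7 held in every alternative: Mstn after over 17 days, and Mstn, Fstl1, Acvr1b, Smad3, Smad7 and Tgfb1 over the trained mouse groups. No called change reversed its direction under any alternative. The limits are the 2-leg groups, the shallow rat libraries and the shared contralateral legs.

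The pairing of legs by animal (replicate block) moved most counts. Between groups that share no animal the block compares own-leg changes, so its counts there are of another quantity than those of the main fit. All genes called went from 1326 to 560 after 2 days and from 754 to 400 after 10 days, from 80 to 1 between over 17 and 2 days, and in rats from 851 to 284 (daily against contralateral), 843 to 143 (daily against sham), 440 to 172 (every 3 days against sham), 1018 to 316 (trained against sham) and 9 to 0 (daily against every 3 days). Of the 10 genes the block left 0 of 4 calls after 2 days, 0 of 3 after 10 days, 0 of 2 in daily against contralateral and 0 of 1 in daily against sham rats, and 1 of 2 in trained against sham rats, and it gave 1 in place of 0 every 3 days against contralateral. With the groups compared alone, 1250 genes and 6 of the 10 were called after 10 days, 4 genes between over 17 and 2 days, 2 of the 10 in daily against sham rats and 21 genes in daily against every 3 days. Median-of-ratios rescaling called 5 of the 10 after 10 days, 127 genes between over 17 and 2 days, 1 of the 10 every 3 days against contralateral and 1 in trained against sham rats. An offset of 1 gave 1 of the 10 every 3 days against contralateral, and no filter 1 in trained against sham rats. The cause of these moves was not tested.

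When any 1 leg was left out, genes called ranged from 196 to 3421 after 2 days (0 to 5 of the 10), 365 to 979 after 10 days (0 to 5), 566 to 1451 after over 17 days (3 to 7), 15 to 2244 between over 17 and 2 days (0 to 0) and 1561 to 3916 over the trained mouse groups (7 to 10). In rats they ranged from 123 to 1325 in daily against contralateral (0 to 3), 323 to 983 every 3 days against contralateral (0 to 2), 0 to 1 in sham against contralateral (0 to 0), 188 to 899 in daily against sham (0 to 1), 250 to 471 every 3 days against sham (0 to 0), 477 to 1056 in trained against sham (0 to 2) and 3 to 14 in daily against every 3 days (0 to 0). Where a group of 2 lost a leg, the leg left was assumed to vary like the other groups.

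Rescaling also changed the balance of calls. The median change of all genes after 2 days was 0.11 and became 0.00 after median-of-ratios rescaling, and the share of calls that were higher went from 75.3 to 52.6%. It went from 71.8 to 57.6% after over 17 days, from 70.2 to 53.5% over the trained mouse groups, from 68 to 55.2% in daily against sham and from 74.5 to 61% in trained against sham rats. With mitochondrial genes left out, it went from 75.3 to 63.6% after 2 days, from 65.3 to 54.5% after 10 days, from 71.8 to 79.8% after over 17 days and from 18.8 to 45.3% between over 17 and 2 days. Of the 10 genes only uncalled values changed sign under rescaling: Acvr1b every 3 days against contralateral, Acvr2a in daily against sham and Smad3 every 3 days against sham.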

Other observations

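For each of the 10 genes called in a species, the 3 genes with the most similar levels over all libraries of that species were found by Pearson's r of log2(CPM + 0.5). The points share libraries, training groups and depth, so r describes these libraries and no p is given. Over 17 mouse libraries Fstl1 was most like the fibrillar collagen genes Col5a2 (r = 0.972), Col5a1 (0.968) and Col1a2 (0.966). Fst was most like Cd53 (0.949), a leukocyte surface gene, Lhfpl2 (0.949) and Mpeg1 (0.941), a macrophage gene. Tgfb1 was most like Gpx1 (0.967), Ctsz (0.959) and Niban2 (0.958).

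Smad7 was most like Hif1a (r = 0.953), which encodes the oxygen-regulated transcription factor, Sgms2 (0.943) and Retreg1 (0.932). Mstn was most like Gdap1 (0.919), Htra4 (0.900) and Pde4b (0.887). Acvr1b was most like Atp2a1 (0.894), the calcium pump gene of fast muscle fibres, and Smad3 was most like Sox6 (0.886), a transcription factor gene of fast fibres. The closest gene to Acvr2a was Hnrnpd (0.905), to Acvr2b Abcb10 (0.891) and to Fstl3 Klf16 (0.897). Over 16 rat libraries Fstl1 was most like Anxa1 (0.959), C1r (0.955) and Arpc5 (0.953), and Acvr1b was most like Pgm1 (0.915).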
